A study of Capra hircus with 12 samples.

Results

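The AP-1 subunit genes FOS, FOSB, FOSL1, FOSL2, JUN, JUNB and JUND and the early response genes ATF3, EGR1 and IER3 were followed in cultured goat cells of the temporomandibular joint (TMJ), the jaw joint. These 10 genes were found by their symbols among the 28910 rows of each count table, with 1 row per gene. The symbols, and no threshold on a measured value, define the set, which was drawn up with earlier results of these data known. IER3 is an immediate early gene whose product is a survival and stress protein, not a transcription factor, so the set is described as AP-1 and immediate early genes.

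RNA was sequenced in 12 libraries, 3 for each of 4 groups. Cells derived from the superficial layer of the condylar cartilage (SLC) and from the middle cartilage layer below it (MLC) came from joints of young female goats collected at abattoirs. They were grown in serum-containing medium and carried either the label IL-1β or the label IL-1β+LOXL2. IL-1β, a cytokine of joint inflammation, was given for an hour in all 4 groups, and LOXL2, a secreted lysyl oxidase that crosslinks collagen and elastin, was delivered beforehand by an adenovirus. Vehicle-treated cells were not analysed here, so these values show the level during IL-1β exposure and not the induction by IL-1β. The sources used here do not say whether the cells sequenced with IL-1β alone received an empty adenovirus, so LOXL2 and the virus cannot be told apart. Nor do they say whether replicates came from separate animals, so p-values measure only the spread between these libraries, which may be technical.

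AP-1 is a pair of basic leucine zipper (bZIP) proteins. JUN proteins pair with each other or with FOS and ATF proteins, whereas FOS proteins need a JUN partner to bind DNA. IL-1 receptor signaling reaches these genes through MAP kinases, which phosphorylate JUN and the factors that sit on the FOS and EGR1 promoters. FOS, FOSB, EGR1, ATF3 and JUNB are known for a brief peak within the first hour or so of a stimulus, whereas the FOS-related genes FOSL1 and FOSL2 usually follow later and last longer. In cartilage, AP-1 is known for driving matrix-degrading enzymes such as MMP13.

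In the genome build the counts were made on (ARS1.2, RefSeq annotation), the FOS family genes lie on 4 chromosomes. FOS spans 3466 bases of chromosome 10 (16631964 to 16635429) and FOSB spans 6938 bases of chromosome 18 (54127703 to 54134640). FOSL1 spans 6972 bases of chromosome 29 (44415931 to 44422902) and FOSL2 spans 22924 bases of chromosome 11 (71072128 to 71095051). The JUN genes are compact. JUN spans 2693 bases of chromosome 3 (33528872 to 33531564), JUNB 1843 bases of chromosome 7 (98107928 to 98109770) and JUND 1850 bases of chromosome 7 (103851767 to 103853616). EGR1 also lies on chromosome 7, over 3837 bases (60658577 to 60662413). ATF3 spans 12853 bases of chromosome 16 (69577756 to 69590608), and IER3 is the shortest of the set, with 1288 bases of chromosome 23 (21705526 to 21706813). All 10 genes are protein-coding, and none overlaps another annotated gene. These spans include introns. The counts were not divided by transcript length, so levels were compared between libraries and not between genes.

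Library totals ranged from 14158607 to 28931652 counts. The goat LOXL2 row was no higher under the LOXL2 label than without it. Its normalized count (mean ± SD, n = 3) was 11708 ± 165 with IL-1β and 9684 ± 999 under the LOXL2 label in SLC, and 15258 ± 1003 and 14599.6 ± 731 in MLC, so "LOXL2" below is the label only. The species of the LOXL2 sequence in the adenovirus is not given in the sources used here, so reads from it need not fall in the goat row. Replicate libraries differed most in the SLC IL-1β+LOXL2 group, where the chi-square per degree of freedom between pairs was 31.0 to 169, against 2.30 to 9.93 within the IL-1β groups and 6.10 to 36.0 in the MLC IL-1β+LOXL2 group. Most fibroblast and fibrous layer markers were abundant in every group, but PRG4 had mean normalized counts of 82.1 to 82.7 in SLC and 100.4 to 111 in MLC. COL2A1 and COL9A1, which define hyaline chondrocytes, were at 0 in every SLC IL-1β library and had mean normalized counts of 309.8 and 261 in MLC with IL-1β. PTPRC, the pan-leukocyte marker, was at a mean of at most 0.643 in each group, while CD14 was at 1216 to 1994. Fewer cells of a type and less RNA per cell cannot be told apart in such bulk libraries.

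All of the 10 genes were detected, and their levels fell into distinct patterns over the 4 groups. FOSL1 and EGR1 separated the layers, in opposite directions. FOSL2, FOSL1 and JUND separated the labels IL-1β and IL-1β+LOXL2. Such separation was common among all genes tested. Between labels, 49.0% of genes in SLC and 41.4% in MLC had no overlap. Between layers the shares were 55.1% with IL-1β and 34.9% with IL-1β+LOXL2. JUN, JUNB and IER3 stayed in overlapping ranges in most comparisons, and FOSB was close to the detection limit. The values below are counts normalized for library size over the 12 libraries, given in the order of replicates 1, 2 and 3, and group means are given ± SD of 3 libraries (n = 3).

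**Figure D1:**
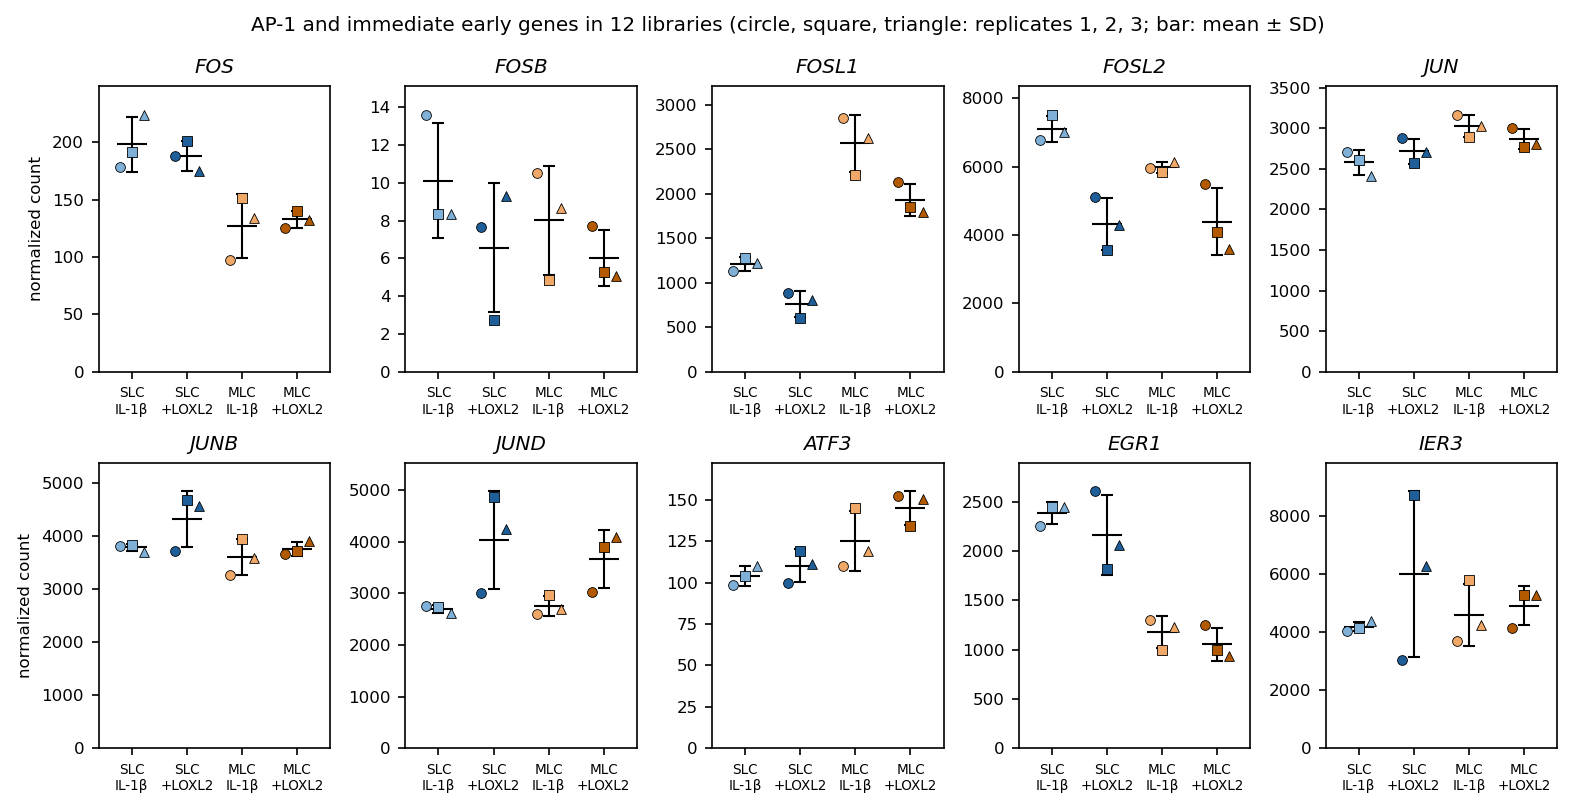
Normalized counts of the 10 genes (y axis, linear from 0, a scale of its own for each gene) in the 3 libraries of each group (x axis), with the group mean and SD as bars. FOSL1 sits in 4 separate steps with means from 761 to 2564. EGR1 is higher in every SLC library than in any MLC library, and FOSL2 and JUND part the labels in opposite directions. Groups without overlap were common among all genes tested (34.9% to 55.1% per comparison).

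FOSL1 (Fra-1), a FOS family protein without the strong activation domain of FOS, had normalized counts of 1127, 1280.1 and 1225 in SLC with IL-1β. In SLC with IL-1β+LOXL2 it had 881, 599 and 802. In MLC it had 2849.8, 2212 and 2630 with IL-1β and 2131, 1856 and 1794 with IL-1β+LOXL2. No library of any group overlapped another group, and the order was MLC IL-1β, MLC IL-1β+LOXL2, SLC IL-1β and SLC IL-1β+LOXL2.

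FOSL2 (Fra-2), the other FOS-related subunit and a known regulator of chondrocyte differentiation and matrix genes, had 6766, 7519 and 7010 in SLC with IL-1β and 5104, 3559 and 4300.3 with IL-1β+LOXL2. In MLC it had 5958, 5835 and 6133 with IL-1β and 5494, 4082 and 3599 with IL-1β+LOXL2. The SLC IL-1β libraries were the highest and the MLC IL-1β libraries came next without overlap. Both IL-1β+LOXL2 groups lay below all IL-1β libraries and overlapped each other.

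FOS, the founding subunit and a short-lived one, had 178, 191 and 224 in SLC with IL-1β and 188, 201 and 175 with IL-1β+LOXL2. In MLC it had 97.1, 151 and 134 with IL-1β and 125, 140.3 and 132 with IL-1β+LOXL2. All 6 SLC libraries were higher than all 6 MLC libraries, and within a layer the labels overlapped. FOSB had between 4 and 14 counts before normalization in each library. Its group means ran from 6.02 ± 1.48 in MLC with IL-1β+LOXL2 to 10.1 ± 3.04 in SLC with IL-1β. It did not pass the filter on low counts, so 9 of the 10 genes were tested, and a difference in FOSB was not detectable at this depth.

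JUN, the main partner of the FOS proteins, had 2711, 2614 and 2414 in SLC with IL-1β and 2876, 2572 and 2702 with IL-1β+LOXL2. In MLC it had 3169, 2892 and 3029.6 with IL-1β and 3005, 2775 and 2811 with IL-1β+LOXL2. The groups spread over a narrow range. Between the labels within a layer and between the layers with IL-1β+LOXL2 the libraries overlapped, and between the layers with IL-1β they did not. JUNB, which can restrain JUN at some promoters, had 3815, 3845 and 3712 in SLC with IL-1β and 3725, 4682 and 4579 with IL-1β+LOXL2. Its MLC values were 3275, 3948 and 3595 with IL-1β and 3660, 3714 and 3916 with IL-1β+LOXL2, and no pair of groups compared was without overlap.

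JUND, the JUN family member usually present in unstimulated cells and known as a brake on growth, had 2763, 2731 and 2617 in SLC with IL-1β and 2999, 4859.6 and 4240.4 with IL-1β+LOXL2. In MLC it had 2593, 2973 and 2692 with IL-1β and 3033, 3899 and 4084 with IL-1β+LOXL2. All 6 IL-1β+LOXL2 libraries were above all 6 IL-1β libraries, and the layers overlapped under both labels.

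EGR1, a zinc finger factor of the first wave, had 2254, 2445 and 2450.1 in SLC with IL-1β and 2608, 1813 and 2065 with IL-1β+LOXL2. In MLC it had 1304, 995 and 1235 with IL-1β and 1246, 993 and 931 with IL-1β+LOXL2. All SLC libraries were above all MLC libraries, and the labels overlapped within each layer. ATF3, a stress-responsive bZIP repressor, had 98.3, 104 and 110.3 in SLC with IL-1β and 99.6, 119 and 111 with IL-1β+LOXL2. Its MLC counts were 110.2, 145 and 119 with IL-1β and 152, 134 and 150.2 with IL-1β+LOXL2. IER3 had 4047, 4137 and 4371 in SLC with IL-1β and 3026, 8704 and 6252 with IL-1β+LOXL2, the widest spread among its 4 groups. In MLC, IER3 had 3703, 5781 and 4251 with IL-1β and 4127, 5287 and 5284 with IL-1β+LOXL2, and no pair of its groups was without overlap.

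The study asked what LOXL2 changes in IL-1β-treated cells of each layer. In SLC, FOSL2 was at 7098 ± 384 with IL-1β and 4321 ± 772 with IL-1β+LOXL2, a log2 difference of -0.71 ± 0.148 (SE). FOSL1 was at 1211 ± 77.6 and 761 ± 145, a log2 difference of -0.67 ± 0.158 (SE). JUND was at 2703 ± 76.6 and 4033 ± 948, a log2 difference of 0.58 ± 0.172 (SE). None passed the threshold of 0.05, since each had an adjusted p of 0.0706 (quasi-likelihood F test of edgeR, Benjamini-Hochberg over 14103 genes). In this fit 0 of the 14103 genes passed (0%), while 6108 (43.3%) had an unadjusted p under 0.05, as had 3 of the 9 genes tested here. The same 3 were without overlap between labels, a property of 49.0% of all genes tested in SLC.

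The SLC count depended on the test and on 1 library. With DESeq2's Wald test, FOSL2 (adjusted p = 0.00219), FOSL1 (0.00656) and JUND (0.0194) passed, beside 4234 genes (30.0%) in all. A fit that took its spread from all 12 libraries also called these 3 (adjusted p of 0.0152 to 0.0172), with 5965 genes (41.0%). Without the first SLC IL-1β+LOXL2 replicate, 6 of the 9 passed in edgeR beside 8849 genes (61.7%). They were FOSL2 at -0.86, FOSL1 at -0.79, EGR1 at -0.30, JUNB at 0.29, JUND at 0.75 and IER3 at 0.84 on the log2 scale. Leaving out any other SLC library left no gene called. Over the 13 alternatives the adjusted p of FOSL2 ran from 6.33e-05 to 0.225, that of FOSL1 from 2.48e-04 to 0.225 and that of JUND from 5.43e-05 to 0.225.

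The other members had smaller log2 fold changes in SLC, and none of them passed either. IER3 was at 4185 ± 167 and 5994 ± 2848, a difference of 0.52 (standard error 0.329, adjusted p = 0.245). JUNB differed by 0.19 (adjusted p = 0.214), JUN by 0.08 (0.556), ATF3 by 0.08 (0.679), FOS by -0.07 (0.723) and EGR1 by -0.14 (0.492).

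In MLC these 3 genes, FOSL2, FOSL1 and JUND, passed in the fit of the 6 MLC libraries, but not in a fit that took its spread from all 12 libraries. There each had a nearly equal log2 difference (-0.44, -0.41 and 0.42) with an adjusted p of 0.174 to 0.177, and 0 of 14534 genes passed (0%), while 3728 (25.7%) had an unadjusted p under 0.05. The values that follow are from the 6 libraries. FOSL2 fell from 5975 ± 150.2 to 4392 ± 985, a log2 difference of -0.45 ± 0.129 (SE, adjusted p = 0.0322). FOSL1 fell from 2564 ± 324 to 1927 ± 179, a log2 difference of -0.41 ± 0.111 (SE, adjusted p = 0.0268). JUND rose from 2752 ± 197 to 3672 ± 561, a log2 difference of 0.41 ± 0.117 (SE, adjusted p = 0.0306). Of the 9 genes tested, 1 was higher and 2 were lower, against 9.81% higher and 11.8% lower (21.6% in all) of the 13664 genes tested in MLC. The libraries of the labels did not overlap for these 3, as for 41.4% of all genes. DESeq2's Wald test called the same 3 (adjusted p of 0.00661 to 0.0098), beside 24.1% of all genes.

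The remaining differences in MLC were 0.22 for ATF3 (adjusted p = 0.314), 0.10 for IER3 (0.663), 0.06 for JUNB (0.66), 0.05 for FOS (0.852), -0.08 for JUN (0.488) and -0.16 for EGR1 (0.388). The MLC calls also moved with single libraries. With IL-1β replicate 1 or 3 or IL-1β+LOXL2 replicate 2 or 3 left out, no member passed, and FOSL1 alone passed without the second IL-1β replicate (-0.51, adjusted p = 0.0467). Over those fits FOSL1 lay between -0.51 and -0.33, FOSL2 between -0.47 and -0.32 and JUND between 0.33 and 0.47. With replicate 1 of IL-1β+LOXL2 left out, 4 passed, FOSL2 at -0.63, FOSL1 at -0.49, EGR1 at -0.29 and JUND at 0.54, beside 6653 genes (48.1%).

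In both layers, the first IL-1β+LOXL2 replicate lay closest to the IL-1β libraries for FOSL1, FOSL2 and JUND. The deviations of the first IL-1β+LOXL2 libraries of SLC and MLC from their group means correlated over all genes (r = 0.70), more than those of replicates 2 (r = 0.27) and 3 (r = 0.23).

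**Figure D2:**
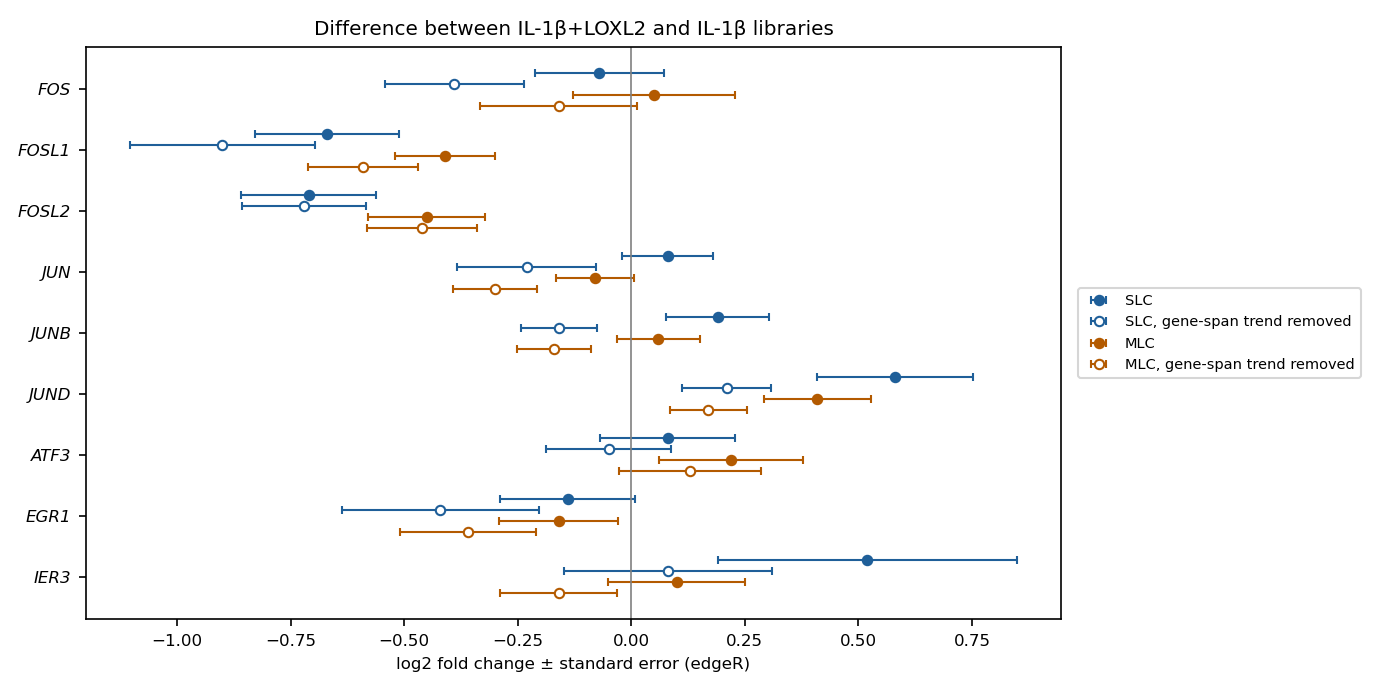
Log2 fold change of IL-1β+LOXL2 over IL-1β (x axis) with its standard error for the 9 genes tested, in SLC and MLC. Filled points are the fit as described and open points the fit with the gene-span trend removed. FOSL1 and FOSL2 lie between -0.90 and -0.41 in all 4 fits, while JUND moves from 0.58 to 0.21 in SLC and from 0.41 to 0.17 in MLC.

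The difference under the LOXL2 label followed gene span across the whole transcriptome. The Spearman correlation of the log2 fold change with the genomic span was -0.49 over 14073 genes in SLC and -0.49 over 13637 genes in MLC, a description across genes that are not independent. The median difference in SLC ran from 0.538 in the bin of genes with the shortest spans, of 20 bins, to -0.451 in that with the longest. The members are mostly short. JUND and IER3, with the highest differences in SLC, are among the shortest, and FOSL2, with the lowest, is the longest. Over the 9 members this correlation was -0.78 in SLC and -0.55 in MLC. The trend also varied between libraries, taking each library's difference from the mean IL-1β level of its layer. In SLC its correlation with span was 0.11, 0.20 and -0.29 with IL-1β and -0.33, -0.48 and -0.50 with IL-1β+LOXL2. In MLC it was 0.06, -0.12 and 0.10 with IL-1β and -0.34, -0.48 and -0.49 with IL-1β+LOXL2.

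With each library's trend on span removed, FOSL1 and FOSL2 kept their direction and size or more in both layers. FOSL1 was at -0.90 in SLC (adjusted p = 0.0779) and -0.59 in MLC (0.0194), and FOSL2 at -0.72 in SLC (0.0779) and -0.46 in MLC (0.0311). JUND dropped to 0.21 in SLC (adjusted p = 0.154) and 0.17 in MLC (0.171) and was no longer called. JUN passed in MLC only in this fit, at -0.30 (adjusted p = 0.0489, with 0.0489 to 0.797 over the 13 alternatives), beside 1818 genes (13.3%). JUN was at -0.23 in SLC (0.276), so that its sign there turned, as did that of JUNB (-0.16) and ATF3 (-0.05). In MLC, FOS (-0.16), JUNB (-0.17) and IER3 (-0.16) turned. EGR1 was at -0.42 and -0.36 and not called. The part of transcript length, base composition and RNA quality in this trend was not tested.

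**Figure D3:**
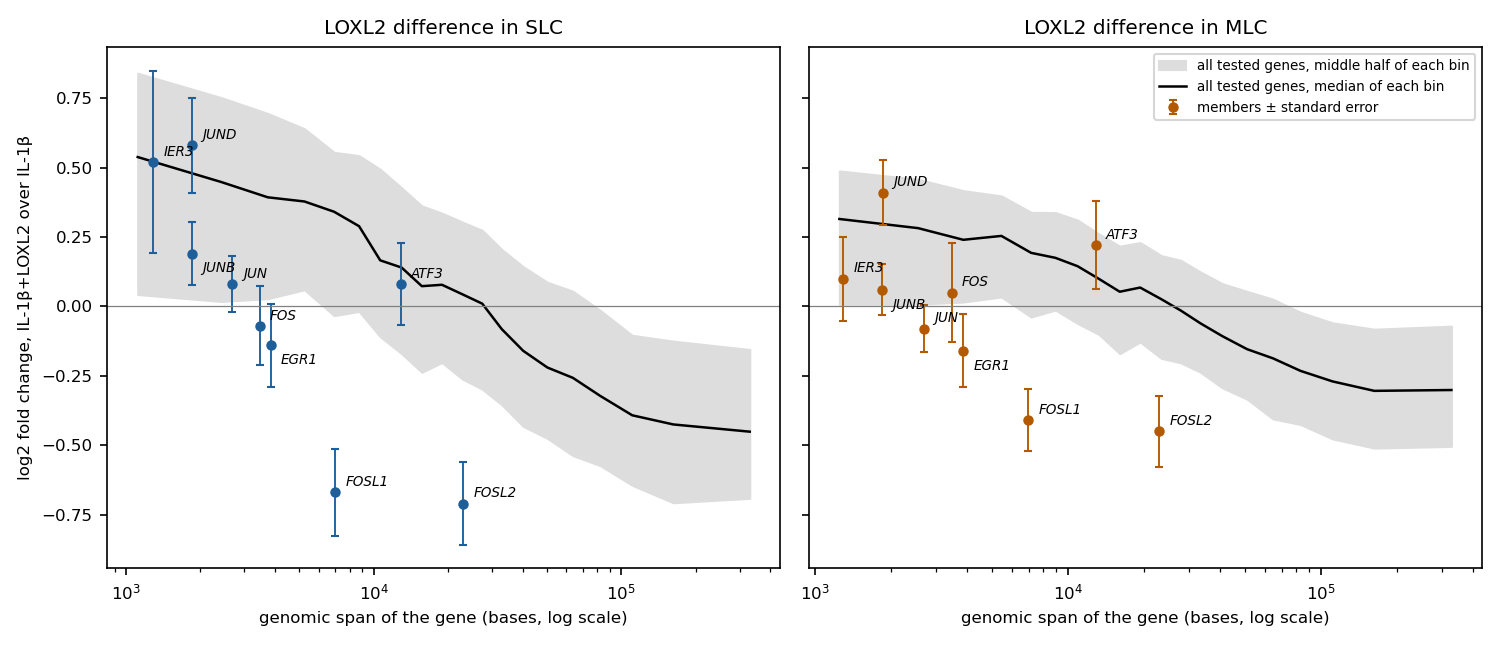
Log2 fold change of IL-1β+LOXL2 over IL-1β (y axis) against the genomic span of the gene in bases (x axis, log scale), in SLC and MLC. The line and band are the median and interquartile range of all tested genes in bins of span, points are the 9 members with standard errors. JUND sits near the line for short genes. FOSL1, FOSL2 and EGR1 sit below the band in both layers, EGR1 by the least, as do FOS in SLC and JUN in MLC.

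An interaction term, fitted over the 12 libraries, asked whether the LOXL2 difference was the same in SLC and MLC. No gene passed (0 of 14534, 0%, with edgeR and with DESeq2's Wald test), and 328 (2.26%) had an unadjusted p under 0.05, none of them a member. The log2 fold change was higher in MLC than in SLC by 0.24 ± 0.197 (SE) for FOSL1 and by 0.25 ± 0.213 (SE) for FOSL2. It was lower by 0.18 ± 0.226 (SE) for JUND and by 0.44 ± 0.407 (SE) for IER3, and the smallest adjusted p of the 9 was 0.959. A difference between layers of the size of these standard errors would not have been detectable.

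The layers were compared next. With IL-1β, FOSL1 was higher in MLC by a log2 difference of 1.10 ± 0.141 (SE, adjusted p = 9.86e-05), and EGR1 was lower (-1.0 ± 0.150, adjusted p = 3.47e-04). FOS was lower in MLC, at 127 ± 27.5 against 198 ± 23.9, a log2 difference of -0.62 ± 0.162 (SE, adjusted p = 0.0139). JUN was higher, at 3030.2 ± 138 against 2579.5 ± 151, a log2 difference of 0.25 ± 0.0812 (SE, adjusted p = 0.0404). Of the 9 genes, 2 were thus higher and 2 lower in MLC, against 14.2% and 11.4% of the 14534 genes tested (25.6% in all). There was no overlap between layers for 5 of the 9, the fifth being FOSL2, against 55.1% of all genes.

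FOSL1 and EGR1 passed in each of the 20 alternatives, with adjusted p of at most 0.00113 and 0.00264. FOS was lost without replicate 3 of SLC IL-1β (-0.51, adjusted p = 0.0652) and without replicate 1 of MLC IL-1β (-0.46, 0.0588). JUN passed in 9 of the 20 alternatives, with an adjusted p of 0.0046 to 0.313, and was lost for instance with DESeq2's size factors (0.0554), without a filter on low counts (0.11) and with the span trend removed (0.18, adjusted p = 0.313). It was also lost without any 1 of the SLC IL-1β replicates (0.20 to 0.28 on the log2 scale), without MLC IL-1β replicate 1 or 3 (0.22 and 0.25), without SLC IL-1β+LOXL2 replicate 3 and without MLC IL-1β+LOXL2 replicate 2 or 3 (0.25 in each). FOSL2 (-0.23), JUNB (-0.06), JUND (0.04), ATF3 (0.27) and IER3 (0.15) were not called.

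With IL-1β+LOXL2, FOSL1 was again higher in MLC (1.34 ± 0.142, adjusted p = 2.07e-05) and EGR1 lower (-1.03 ± 0.150, adjusted p = 2.39e-04), and both passed in all 21 alternatives. FOS was lower (-0.51 ± 0.159, adjusted p = 0.0306) and passed in 15 of the 21 alternatives (adjusted p of 0.0134 to 0.0957). It was lost in the fit on the 6 libraries compared, in which 2 members passed. Among the fits with 1 library left out, it was lost without SLC IL-1β+LOXL2 replicate 2 (-0.46). The same held without MLC IL-1β+LOXL2 replicate 1 (-0.46), 2 (-0.55) or 3 (-0.51). ATF3, at 145 ± 10.2 in MLC against 110.1 ± 10.0 in SLC, missed the threshold narrowly (0.40 ± 0.140, with an adjusted p just above 0.05) and passed in 7 of 21 alternatives (0.0401 to 0.173). Those included the fits without the second SLC IL-1β+LOXL2 replicate (0.46, adjusted p = 0.0452) and without the second MLC IL-1β replicate (0.40, 0.0405). No label pairs the libraries. The fit as described is unpaired. An alternative took the replicate numbers as pairs, a pairing read from these same data (r = 0.70, 0.27 and 0.23 between same-numbered libraries). These r values are not independent, since deviations from a group mean balance out within the group. With the number as a block over all 12 libraries, ATF3 passed (0.41, adjusted p = 0.0495), as did FOSL1, EGR1 and FOS. That block also pairs the IL-1β groups, where r was -0.12 to -0.05. In the 6 libraries compared alone, with the block, ATF3 did not pass (0.41, adjusted p = 0.104), a fit chosen after seeing the data.

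Without the block 1 of 9 was thus higher and 2 were lower, and with it 2 were higher and 2 lower, against 14.6% and 14.3% of all genes without it (28.9% in all), and 4 were without overlap, against 34.9%. FOSL2 (0.02), JUN (0.07), JUNB (-0.21), JUND (-0.14) and IER3 (-0.30) were not called. Without the first SLC IL-1β+LOXL2 replicate, JUNB (-0.31), JUND (-0.32) and IER3 (-0.62) passed as well. These layer differences share libraries with the LOXL2 differences above. Beside them, SOX9 and ACAN, the master regulator and main proteoglycan of chondrocytes, had mean normalized counts of 1618 and 7451 in MLC with IL-1β against 399.6 and 894 in SLC. Of 11 chondrocyte markers, 9 were found in the tables, and their summed normalized count was 32947 to 35770.5 in MLC with IL-1β and 24505 to 26942 in SLC with IL-1β. With IL-1β+LOXL2 it was 27681 to 35087 in MLC and 13909 to 24344 in SLC. COL11A1 made up most of these sums. Its mean was 22229 in MLC and 23200.4 in SLC with IL-1β, and 19029 and 15966 with IL-1β+LOXL2. MATN3 was low in both layers with IL-1β (7.62 in MLC and 6.63 in SLC), whereas COMP, HAPLN1 and COL11A2 were higher in MLC. The part of the cells' chondrocyte identity in the layer differences of FOSL1, EGR1 and FOS was not tested.

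**Figure D4:**
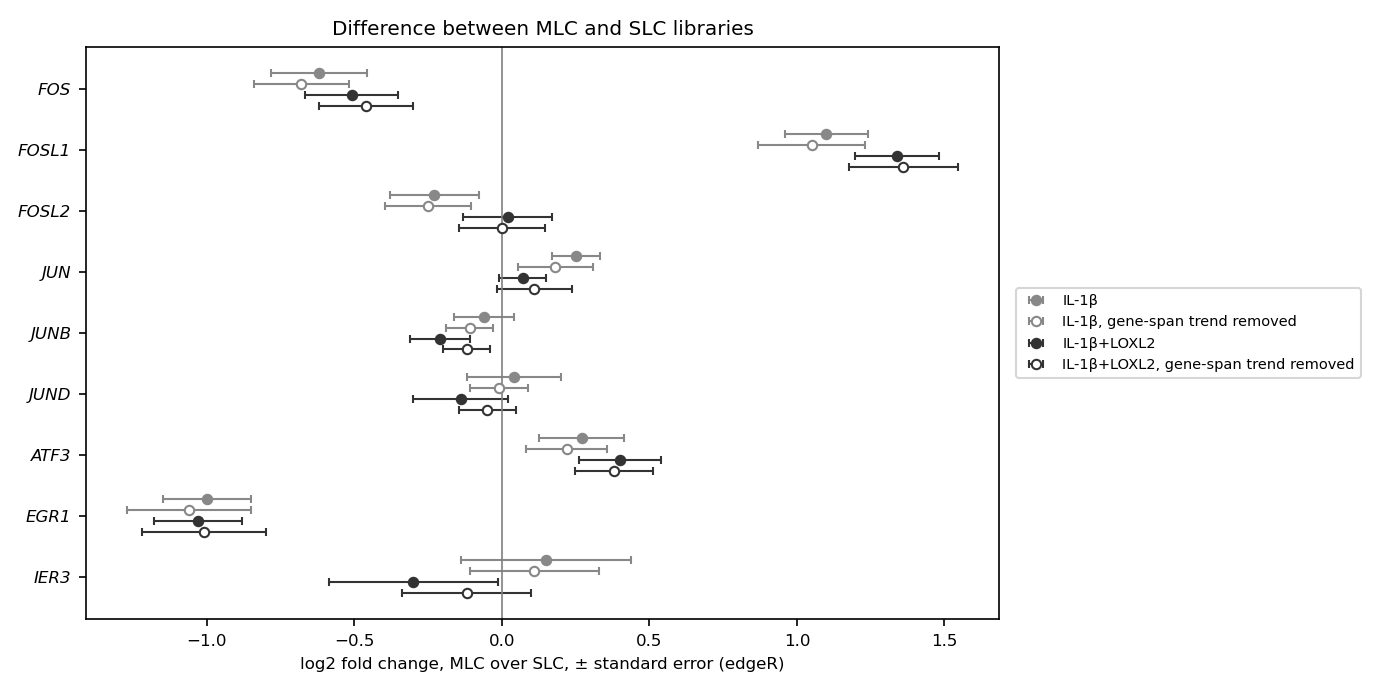
Log2 fold change of MLC over SLC (x axis) with its standard error for the 9 genes tested, with IL-1β and with IL-1β+LOXL2. Filled points are the fit as described and open points the fit with the gene-span trend removed. FOSL1 lies to the right and EGR1 and FOS to the left in all 4 fits, and the other members lie between -0.30 and 0.40.

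The members also varied together within groups, once group means were taken out. These deviations are not free of the label, since the first IL-1β+LOXL2 replicates lay closest to the IL-1β libraries for FOSL1, FOSL2 and JUND. Over the 12 libraries, with group means removed from the log2 normalized counts, Pearson's r was 0.93 between JUND and IER3, 0.92 between JUNB and IER3 and 0.92 between FOSL1 and EGR1. It was -0.94 between JUND and EGR1 and -0.89 between FOSL2 and JUND. FOSL2 and JUND were also opposed over the 12 libraries as they stand (r = -0.93). FOSL1 and EGR1 had r = -0.71 over the libraries as they stand, so the relation between layers ran against that within groups. These values are descriptions, and the points share library and depth.

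Among 10760 well-counted genes, the pattern over the 12 libraries most like that of JUND was that of CD151, a tetraspanin (r = 0.996). FOSL1 was most like KIF20B (0.992), a mitotic kinesin, and UGDH (0.991), an enzyme of glycosaminoglycan precursor synthesis. EGR1 was most like ILDR2 (0.990) and CAMK2G (0.988), and FOSL2 was most like SENP7 (0.987), a SUMO protease, and ETS1 (0.984), a transcription factor that often acts with AP-1. JUNB was most like YPEL4 (0.965) and CLN3 (0.959), ATF3 like GPRC5A (0.942) and PGK1 (0.940), FOS like MOSPD1 (0.929) and RSPO1 (0.926), and JUN like SCARA3 (0.927) and FRMD8 (0.911). IER3 was most like LOC102188618 (0.975) and LOC102168428 (0.971), which have no symbol of their own.

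The wider pathway was read from 5 lists of genes that do not contain the members. Their counts in MLC are to be read against the 9.81% of all genes that were higher and the 11.8% that were lower (21.6% in all), and against 0 genes in the fit on all 12 libraries, in which no gene of any list passed either. In SLC no gene of any list passed, in the fit in which none of all genes did. In MLC, the signaling cascade that reaches AP-1 (MAP kinases, their activators and the ternary complex factors) had 4 of 30 tested genes higher and 7 lower, beside 9.81% and 11.8% of all genes, with a median log2 fold change of -0.08 beside 0.008 over all genes. ELK4, a ternary complex factor that binds with SRF at early gene promoters, fell from 397 ± 25.9 to 151 ± 65.6, a log2 difference of -1.39 ± 0.224 (SE, adjusted p = 0.019). RPS6KA3 (RSK2), a kinase downstream of ERK, fell by 0.70 and MAP3K1, an upstream kinase of the JNK branch, by 0.82 on the log2 scale. In SLC, ELK4 was at 458 ± 99.8 with IL-1β and 113 ± 85.5 with IL-1β+LOXL2 (-2.02), MAPK11 at 0.75 and MAPK12 at 0.73, both p38 kinases, each with an adjusted p of 0.0706.

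Feedback inhibitors of MAP kinases, the DUSP phosphatases and the Sprouty and SPRED proteins, are themselves early response genes. In MLC, 0 of 14 tested were higher and 3 were lower, with a median of -0.14, a called share close to the 21.6% of all genes. SPRY4 fell by 0.62, SPRED1 by 0.53 and SPRED2 by 0.42 on the log2 scale. In SLC the median was -0.24, beside 0.013 over all genes, and none was called. SPRED2 and DUSP4 were at -0.50 and DUSP16 at -0.47 there. With the span trend removed, SPRED1 and SPRED2 were no longer called in MLC (-0.28 and -0.18), and SPRY4 was (-0.69). In SLC that fit had SPRED2 at -0.14 and DUSP16 at -0.10, while DUSP4 stayed at -0.56.

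Of the other bZIP genes listed, 1 of 24 was higher and 3 were lower in MLC, with a median of 0.03. The called share was below the 21.6% of all genes. CREB1 (-0.44) and CREB5 (-0.53), which bind cyclic AMP response elements, and ATF7 (-0.40), a relative of ATF2, were the lower ones. None of these 3 passed once the span trend was removed (-0.27, -0.23 and -0.17). In SLC, DDIT3 (CHOP), a stress-induced factor, was at 0.69, CREB1 at -0.52 and CREB5 at -0.60, and none was called. With the span trend removed they were at 0.36, -0.27 and -0.15.

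Of the other immediate early genes, 2 of 37 were higher and 3 lower in MLC, with a median of -0.07, likewise a smaller called share than the 21.6% of all genes. NR4A3, a nuclear receptor of the first wave, fell from 82.8 ± 5.57 to 50.5 ± 4.91, a log2 difference of -0.71 ± 0.192 (SE, adjusted p = 0.0282), and it was at -0.60 (adjusted p = 0.0559) with the span trend removed. GADD45A, a stress sensor, rose by 0.37 and IER5L by 0.39 on the log2 scale, and both were lost in that fit (0.16 and 0.15). In SLC, NR4A3 was at -1.49, NR4A2 at -0.65 and GADD45A at 0.54, and none was called. With the span trend removed they were at -1.34, -0.87 and 0.22.

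Of the genes described as AP-1 targets, 2 of 26 were higher and 6 lower in MLC under the LOXL2 label, with a median of -0.15, beside 9.81% higher and 11.8% lower of all genes. ADAMTS5, an aggrecan-cleaving protease, fell from 3391 ± 520.5 to 1786 ± 563, a log2 difference of -0.93 ± 0.183 (SE, adjusted p = 0.019). EREG, an EGF receptor ligand, fell by 0.78, and TIMP1, an inhibitor of metalloproteinases, rose by 0.61 on the log2 scale. All 3 remained called with the span trend removed (-0.79, -0.81 and 0.38). In SLC, ADAMTS5 was at -1.46, EREG at -1.39 and PTGS2, the inducible cyclooxygenase, at -1.09. None was called in the fit as described, and each passed in 3 of 13 alternatives. In MLC, PTGS2 was called at -0.71 (adjusted p = 0.0207) and at -0.86 with the span trend removed (0.0187), passing in 7 of 13 alternatives. Between the layers, 17 of 27 targets were higher in MLC than in SLC with IL-1β and 1 was lower, beside 14.2% and 11.4% of all genes, with a median log2 difference of 0.87 beside -0.01 over all genes. With IL-1β+LOXL2, 16 were higher and 2 lower, beside 14.6% and 14.3% of all genes (median 0.95 beside -0.042). Leaving out each library left 14 to 24 targets called with IL-1β and 16 to 20 with IL-1β+LOXL2. MMP3 (5.19) and MMP1 (3.19), the stromelysin and interstitial collagenase genes with classical AP-1 sites, were among the higher ones with IL-1β, and PLAU (-0.71) was the lower one. These 3 were chosen after their values were seen.

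The list counts in MLC moved with the libraries in the same way as the members. With 1 library left out, called genes ranged from 0 to 19 in the cascade and 0 to 4 among feedback inhibitors. They ranged from 0 to 14 among the other bZIP genes, 0 to 18 among other immediate early genes and 0 to 12 among targets. The upper end of the range came from leaving out the first IL-1β+LOXL2 replicate, and the count was 0 in all 5 lists when replicate 1 or 3 of IL-1β or replicate 2 of IL-1β+LOXL2 was left out. In SLC, leaving out the first IL-1β+LOXL2 replicate gave 19, 9, 16, 22 and 16 called genes in the same order, and leaving out any other library gave none.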

How the data were processed

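The 12 RNA-seq libraries hold 3 per layer and label. Per layer, the authors deposited a table of unnormalized counts per gene, made from paired-end reads (poly-T selection) mapped to goat ARS1.2. The submitters' processing notes name HISAT2 and featureCounts, and settings for strand and multi-mapping reads are not given in the sources used here. The labels name an RNeasy kit for RNA and the paper TRIzol. No batch is labelled. Of 28910 rows, 26 carry names turned into dates by a spreadsheet and 1783 share a name with another row. None of these is a member.

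The test was the quasi-likelihood F test of edgeR 4.0.16 (R 4.3.3), with TMM scaling, filterByExpr (minimum 10, total 15) and a Benjamini-Hochberg threshold of 0.05 over all genes tested, in the 6 libraries of a layer for the LOXL2 label and in all 12 for layers and interaction. Standard errors (SE) were computed as |log2 fold change| / √F. Levels are DESeq2 1.42.0 median-of-ratios counts over 12 libraries, as mean ± SD. No replicate pair agreed within counting noise. The scripts were tested on simulated counts.

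The members and the 5 lists were chosen with earlier results of these data known. The genes named from each list are the 3 with the smallest p in each layer with a mean normalized count of at least 50, and for likeness the 2 with the highest r among genes with a mean of at least 100. Alternatives were DESeq2's size factors, no filter, a floor of 10 counts per library, the Wald test of DESeq2, a replicate block, another set of libraries in the fit, each library left out, and the gene-span trend removed (an offset of each library's lowess trend, smoother span 0.3). No label gives a pairing. The fits as described are unpaired, and the replicate block was an alternative only. The r of same-numbered libraries was highest between the layers with IL-1β+LOXL2 (0.70, 0.27 and 0.23), against at most 0.19 elsewhere. A pairing for that comparison is thus read from the same data. Sequences and transcript lengths were not used here.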

Additional observations from a re-analysis of the deposited data

How the results depend on the processing

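The depth limits FOSB, which was not tested in the fits as described, and with 3 libraries a group the calls under the LOXL2 label moved with single libraries. The cause was not tested for any change below.

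In SLC under the LOXL2 label, 3 members and 4234 genes were called with DESeq2's Wald test and 3 and 5965 in the fit on all 12 libraries, against 0 and 0. Leaving out 1 library gave 0 to 6 members and 0 to 8849 genes. In MLC, 0 members and 0 genes were called in the fit on all 12 libraries and 1818 genes with the span trend removed, against 3 and 2958. Leaving out 1 library gave 0 to 4 members and 0 to 6653 genes. Between layers with IL-1β, 6548 genes were called in the fit on the 6 libraries compared and 5936 without the first LOXL2 libraries of both layers (chosen after seeing the data), against 3715. Leaving out 1 library gave 2 to 4 members and 2600 to 5051 genes. Between layers with IL-1β+LOXL2, 2268 genes were called in the fit on the 6 libraries, against 4199, and leaving out 1 library gave 2 to 6 members and 3150 to 6812 genes. In the interaction, leaving out 1 library gave 0 members and 0 to 1 genes, and leaving out the first LOXL2 libraries of both layers gave 2 genes.

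The replicate block called 0 members and 0 genes in SLC, 3 members and 4053 genes in MLC, 4 members and 4013 genes between layers with IL-1β, and none in the interaction. The r of same-numbered libraries was -0.28 to 0.19 within a layer and -0.12 to -0.05 between the IL-1β groups. For the comparison of layers with IL-1β+LOXL2 it was 0.23 to 0.70, so a pairing there is read from these same data. The block over all 12 libraries called 4 members there, ATF3 being added (adjusted p = 0.0495), and 4518 genes. In the 6 libraries alone it called 3 members and 3887 genes (the latter chosen after seeing the data).

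Signs turned only for values that were not called. With the span trend removed these were JUN (-0.23), JUNB (-0.16) and ATF3 (-0.05) in SLC, FOS (-0.16), JUNB (-0.17), IER3 (-0.16) and DUSP16 (0.02) in MLC, JUND (-0.01) between layers with IL-1β, FOSL2 (0.00) between layers with IL-1β+LOXL2 and EGR1 (0.05) in the interaction. FOSL2 with IL-1β+LOXL2 was also at -0.03 without the first LOXL2 libraries of both layers. With 1 library left out, FOS ran from -0.14 to 0.03 in SLC and, in MLC, FOS from -0.10 to 0.19, JUNB from 0.00 to 0.13, IER3 from -0.03 to 0.30 and DUSP4 from -0.15 to 0.12. Between layers with IL-1β, JUNB ran from -0.12 to 0.01, JUND from -0.01 to 0.08 and IER3 from -0.05 to 0.28. With IL-1β+LOXL2, FOSL2 ran from -0.17 to 0.15, JUND from -0.32 to 0.02 and IER3 from -0.62 to 0.08. In the interaction, FOS ran from -0.05 to 0.25 and EGR1 from -0.16 to 0.12.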
